A study of Homo sapiens with 6 samples.

Results

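The integrated stress response is a signalling route by which cells answer a shortage of amino acids, unfolded protein in the endoplasmic reticulum and other stresses. Its kinases phosphorylate the translation initiation factor eIF2, which slows general protein synthesis while the transcription factor ATF4 is translated more. ATF4 then induces genes for amino acid synthesis, mitochondrial one-carbon metabolism and amino acid import, together with genes that damp the response. The transcripts described here are 35 such genes, chosen by symbol from textbook knowledge of the pathway with earlier results of these data known, and all 35 had a row among the 15379 gene symbols of the deposited count table. They comprise 6 transcription factors, 9 feedback genes and stress effectors, 9 enzymes of amino acid synthesis, 4 enzymes of mitochondrial one-carbon metabolism and 7 amino acid transporters. Of the 35 genes, 33 passed the filter on low counts and were tested among 12056 genes, and CBS and ALDH1L2 did not.

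The cells were HaCaT, an immortalised line of human keratinocytes with no engineered genotype. One group of 3 libraries came from cells held at 37C for 1 h per day over 3 days, and the other group of 3 from cells warmed to 41C on the same schedule. Whether replicates are independent cultures is absent from the labels, and the spread behind every p-value is that between these libraries, which may be technical. The delay between the last warming and RNA isolation is likewise unstated. Polyadenylated RNA was sequenced and counted per gene symbol, and the libraries held 19659112 to 20856144 counts. All 8 keratinocyte markers examined were detected, with 6330 to 7020 CPM (counts scaled to library size) in sum at 37C and 7450 to 7700 at 41C. The part of this difference in the results below was not tested. KRT5 and KRT14 made up most of the sum. By marker the log2 changes at 41C ran from -0.01 for DSG3 and 0.035 for TP63 to 0.26 for COL17A1 and 0.39 for KRT17. Of 6 melanocyte markers 3 had a row, summing to at most 2.96 CPM in any library, and the 5 fibroblast markers with a row summed to 13.9 to 18 CPM. The 6 leukocyte and endothelial markers summed to 32.3 to 47.9 CPM, mostly from CD68 and CDH5, while PTPRC, the pan-leukocyte marker, was at or near 0. In bulk RNA, fewer cells with a transcript and less of it per cell cannot be told apart.

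At 41C none of the 33 tested transcripts passed the threshold of an adjusted p of 0.05 in edgeR's quasi-likelihood test. Over all genes that test called 131, or 1.09%, with 0.821% higher and 0.265% lower (99 against 32 genes, and 57 against 53 with upper-quartile scaling). DESeq2, run as an alternative, called SLC7A1 as higher and DDIT4 as lower, and limma-voom called none of the 33. Of the 12056 genes DESeq2 called 217, but it gave some genes no adjusted p, 14 of the 33 transcripts among them. Such genes were counted as not called, so these counts are not shares of the genes that could be called. At an unadjusted p under 0.05, edgeR had 3 of the 33 transcripts higher and 4 lower, against 13.7% of all genes (7.58% higher and 6.12% lower). In 7 of the 33 the 3 libraries of one temperature lay wholly above the 3 of the other, as they did in 20% of all genes tested (11.2% with 41C above and 8.84% with 41C below). These 7 were the transporters SLC7A1 and SLC1A4 and the serine enzyme PSPH, higher at 41C, and DDIT3, DDIT4, CTH and ASNS, lower at 41C. The log2 changes of the 33 ran from -0.26 to 0.18, with 16 above and 17 below 0 (11 and 22 with upper-quartile scaling, 19 and 14 with the length correction), where 50.9% of all genes lay above 0. Their median was -0.01, beside 0.0023 over all genes tested.

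**Figure D1:**
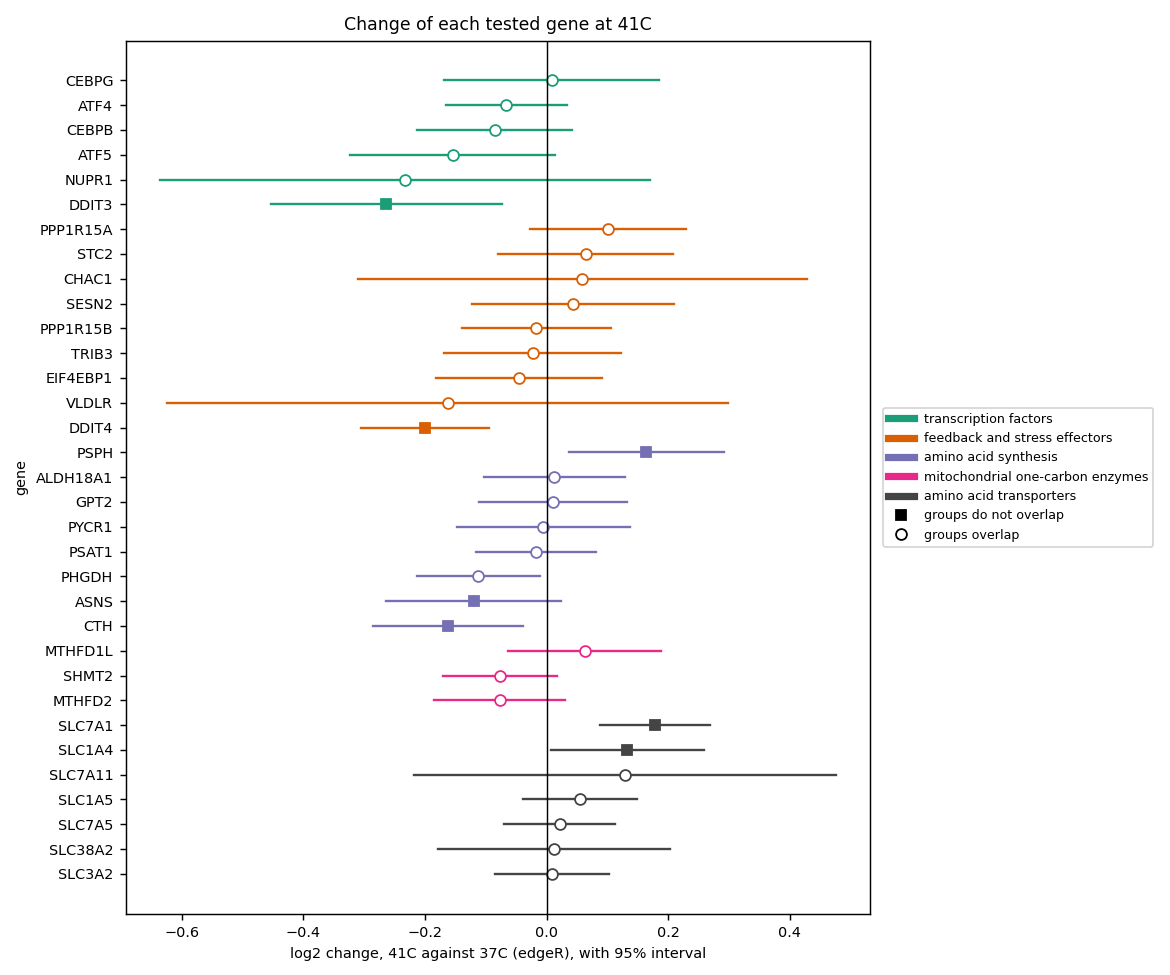
Log2 change at 41C against 37C (horizontal axis, edgeR, 3 libraries per temperature) with its 95% interval for the 33 tested genes (vertical axis), coloured by role. Squares mark the 7 genes whose libraries did not overlap between temperatures, and the point estimates run from -0.26 for DDIT3 to 0.18 for SLC7A1.

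Levels set the scale on which such differences are read. Per gene length, in the authors' FPKM (counts per kilobase of gene, scaled to library size), the 33 tested transcripts spanned from VLDLR at 0.259 ± 0.041 (SD, n = 3) to SLC7A5 at 599 ± 8.88 at 37C. SLC7A5, which encodes the light chain of the large neutral amino acid transporter LAT1, alone took 0.312 to 0.332% of all counts in each library. DDIT4, an mTORC1 inhibitor, followed at 349 ± 17.7 FPKM, then SLC3A2, the heavy chain that carries LAT1 to the cell surface, at 338.5 ± 10.5 FPKM. The means of DDIT4 and SLC3A2 lay within 1 SD of DDIT4. PSAT1, a serine synthesis enzyme, had 170.9 ± 10.6 FPKM and SLC1A5, the glutamine transporter, 129.6 ± 5.55 FPKM. At the low end stood CHAC1, which degrades glutathione, at 1.09 ± 0.0621 FPKM, and the stress protein gene NUPR1 at 0.614 ± 0.0293 FPKM.

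The order of levels depends on the gene length used, and for several genes the deposited length departs from the annotated exons. It was over 1.5 times the exon length for ATF4, CHAC1 and MTHFD1L, and longer than the whole gene for ATF4, CHAC1 and CEBPB. ATF4 was divided by 7713 bp, while its whole gene spans 2991 bp (chr22:39519695-39522685, GENCODE release 29 on GRCh38) and its exons together cover 2514 bp. Its deposited level was 65.4 ± 3.39 FPKM at 37C, and counting the same reads per kilobase of those exons gave 201. By that measure ATF4 moved from the ninth place to the third among these transcripts. MTHFD1L, divided by 13295 bp, went from 4.66 to 12.3 and CHAC1, divided by 3722 bp, from 1.09 to 1.97. In the other direction, SLC3A2 was divided by 2440 bp where its exons cover 5178 bp, and its level of 338.5 became 160, the fifth place in place of the third. SHMT2, divided by 2675 bp against 4838 bp of exons, went from 96.2 to 53.2. These exon lengths join the exons of all annotated transcripts of a gene. The longest single transcript of SLC3A2 had 2222 bp, under its deposited length, so its lower level rests on the joined length. That of SHMT2 had 3416 bp, over its deposited length but under the joined one, so only part of its lower level rests on joining. Neither lower level is a correction. What the longer deposited models contain was not examined, so reads from beyond ATF4 may be counted in its row. The length is the same in every library and does not enter the edgeR comparison of temperatures on counts. It does enter the length correction used as an alternative, under which the log2 change of MTHFD1L was 0.01 in place of 0.06 and that of ATF4 was -0.09 in place of -0.07.

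**Figure D2:**
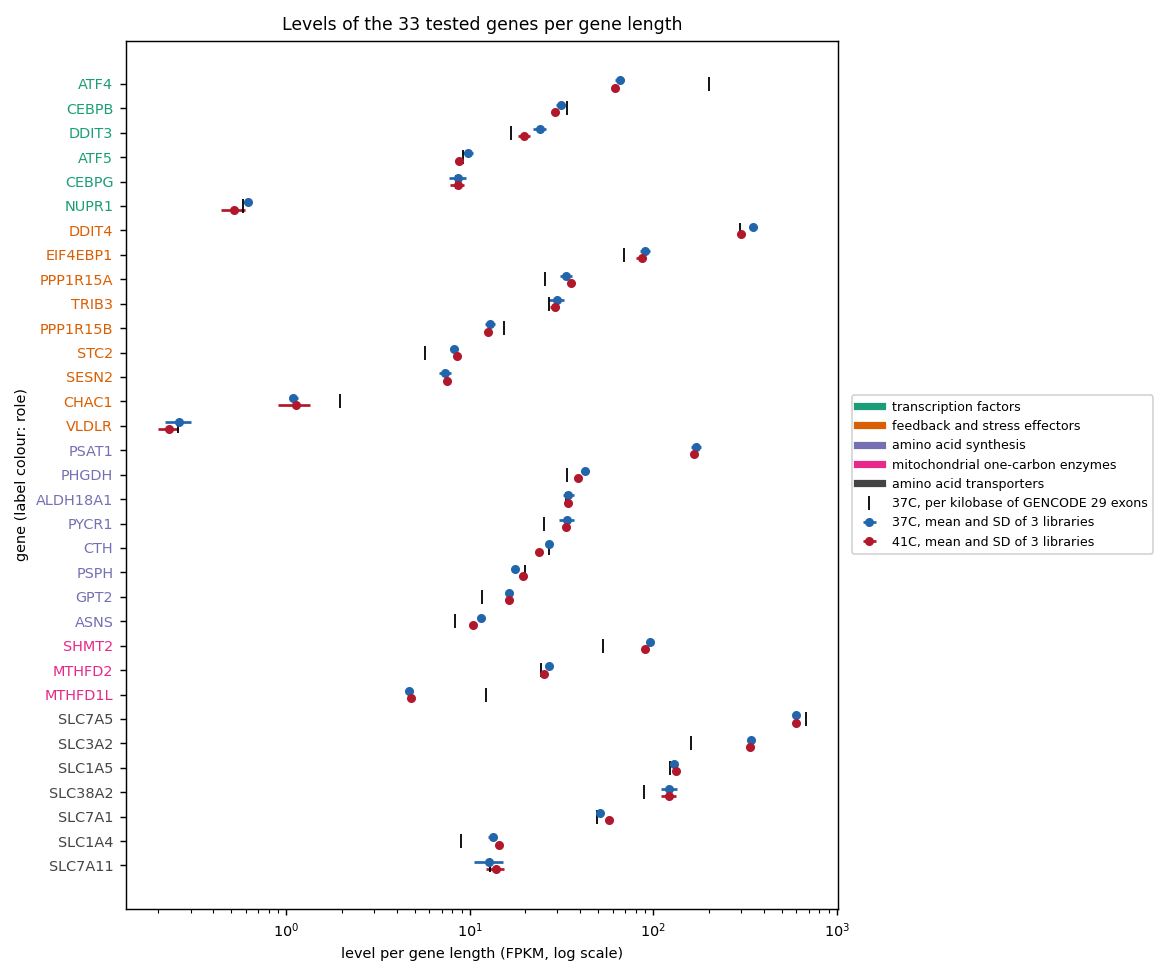
Level per gene length on a log scale (horizontal axis, FPKM) for the 33 tested genes (vertical axis), as mean and SD of 3 libraries at 37C and at 41C, with a tick for the 37C level per kilobase of GENCODE 29 exons. The temperatures lie close together for each gene, and the tick departs most for ATF4 (65.4 against 201), MTHFD1L (4.66 against 12.3) and SLC3A2 (338.5 against 160).

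ATF4 acts through a short composite element, the C/EBP-ATF response element, bound by ATF4 with a C/EBP partner. Windows from 250 bases before to 50 bases after annotated gene starts (RefSeq, GRCh38.p14) were at hand for 27 of the 35 genes. The letters TGATGNAAN, searched on both strands, stood in a window of 9 of these 27 genes (33.3%; exact 95% binomial interval 16.5 to 54.0%) and of 4.45% of all 27305 symbols. Many of the genes had been chosen as known ATF4 targets, so this share is no independent evidence. Copies from 6 of them are shown because they include both transporters with separated groups and the classical asparagine synthetase element. Capitals mark the match, each read 5′ to 3′ on the strand that carries it.
SLC7A1, chr13:29595663-29595691, minus strand: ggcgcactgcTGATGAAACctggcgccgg
SLC1A4, chr2:64989381-64989409, minus strand: cggctggagaTGATGCAAAcgggagccgc
SLC1A5, chr19:46784893-46784921, minus strand: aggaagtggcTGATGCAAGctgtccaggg
ASNS, chr7:97872458-97872486, minus strand: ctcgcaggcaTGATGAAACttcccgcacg
CEBPG, chr19:33374061-33374089, plus strand: gcgcggcgtcTGATGCAACctgccggcaa
CHAC1, chr15:40953251-40953279, minus strand: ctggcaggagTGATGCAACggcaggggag

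Counted from a RefSeq start, the match began 68 bases before that of ASNS, 97 before that of SLC1A5 and 42 before that of CEBPG. It began 7 bases after that of SLC7A1. For SLC1A4 and CHAC1 the match lies on the strand opposite the gene. Along the gene, its upstream end, the last letter as shown, lay 8 bases before the start of SLC1A4 and 210 before that of CHAC1. The other genes with a match were PPP1R15B, MTHFD1L and SLC3A2. The stricter letters TGATGCAA, which lie within many of these matches, stood in windows of 6 of the 27 genes and 1.08% of all symbols. A match is a description of letters, not a bound site, and SLC7A11, PSPH, SHMT2, NUPR1, PYCR1, GPT2, EIF4EBP1 and ALDH1L2 had no window. Genes that share the letters had point estimates of both signs, and none of them passed the threshold in the main edgeR test. Of the 9, 7 had a positive log2 change (median 0.06), from -0.12 for ASNS to 0.18 for SLC7A1, and 4 of the 9 are transporters. CEBPG and SLC3A2, counted among the 7, were negative with upper-quartile scaling and on the FPKM scale. Of the 17 tested genes whose windows lacked the letters, 6 had a positive change (median -0.07). Of these 6, ALDH18A1 and SLC38A2 were negative under those same alternatives, and PSAT1 was positive instead of negative with the length correction. The difference between these sets was not tested.

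The 6 transcription factors had a median log2 change of -0.12, and 5 of them had a negative one (6 with upper-quartile scaling or on the FPKM scale). ATF4, whose protein is set largely by translation, was at 486.8, 483.0 and 534.3 CPM at 37C and at 467.2, 474.1 and 495.5 CPM at 41C. The groups overlapped, because 41C replicate 3 exceeded 37C replicates 1 and 2. The log2 change of ATF4 was -0.07 ± 0.05 (SE; edgeR adjusted p = 0.581), with a 95% interval of -0.17 to 0.03, or up to 1.023-fold. That limit holds for this fit and for the reads counted in the row of ATF4. Over the 16 alternatives the log2 change ran from -0.10 to -0.02.

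DDIT3 encodes CHOP, a transcription factor that ATF4 induces under lasting stress. It was at 23.5, 20.4 and 21.2 CPM at 37C and at 19.5, 17.1 and 17.7 CPM at 41C. All 3 warmed libraries lay below all 3 at 37C, and its log2 change of -0.26 ± 0.09, the lowest of the 33, did not pass (edgeR adjusted p = 0.190). Exons of DDIT3 overlap those of the tRNA synthetase gene MARS1 on the opposite strand by 355 bp, and those of MBD6 there by 58 bp. With a strand setting not given in the sources used here, reads of these genes may be mixed and the value of DDIT3 is uncertain. In all, 12 of the 35 genes have exons overlapping another gene on the opposite strand. SLC7A5, SLC7A11, SLC1A5, MTHFD2 and SHMT2 are among them and carry the same doubt. MARS1 itself had a log2 change of -0.03 ± 0.05. With a correction for gene length the log2 change of DDIT3 was -0.17.

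The C/EBP factor CEBPB, at 65.6 ± 4.24 CPM at 37C and 61.9 ± 0.924 at 41C, had a log2 change of -0.09 ± 0.06. CEBPG, the usual C/EBP partner of ATF4, was at 41.15, 34.24 and 35.09 CPM at 37C and at 40.40, 34.40 and 36.36 CPM at 41C. Replicate 1 was the highest library of CEBPG at both temperatures, and the change was 0.01 ± 0.08 (95% interval -0.17 to 0.19). ATF5, which like ATF4 is translated under eIF2 phosphorylation, had a log2 change of -0.15 ± 0.08, and its exons overlap those of NUP62 on the opposite strand. NUPR1, at 3.26 ± 0.14 and 2.78 ± 0.427 CPM, had the widest interval of the factors, -0.64 to 0.17.

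The 9 feedback genes and stress effectors had a median log2 change of -0.02, with 4 positive and 5 negative (5 and 4 with the length correction). DDIT4, also called REDD1, restrains mTORC1, the kinase complex that promotes growth when amino acids are plentiful. Its gene lies at chr10:72273920-72276036. DDIT4 was at 571.5, 637.1 and 607.1 CPM at 37C and at 495.2, 537.4 and 548.2 CPM at 41C. The groups were separate, and the highest warmed library lay below the lowest one at 37C. The log2 change of DDIT4 was -0.20 ± 0.05, or 0.87 times the 37C level (95% interval 0.809 to 0.937; edgeR adjusted p = 0.0674). It passed the threshold in 6 of the 16 alternatives, DESeq2 among them (adjusted p = 0.0168). With the length correction its log2 change was -0.15 and did not pass (edgeR adjusted p = 0.142). In edgeR with 1 library left out, the adjusted p of DDIT4 ran from 0.0072 without 37C replicate 1 to 0.391 without 37C replicate 2. DDIT4-AS1, annotated on the opposite strand, overlaps 847 bp of its exons.

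The phosphatase subunits that reverse eIF2 phosphorylation differ in how they are controlled, PPP1R15A (GADD34) being induced by stress and PPP1R15B (CReP) constitutive. PPP1R15A was at 78.3, 72.2 and 84.2 CPM at 37C and at 84.8, 82.0 and 84.9 CPM at 41C. The groups overlapped only through 37C replicate 3, and the log2 change, the highest of the effectors, was 0.10 ± 0.06 (edgeR adjusted p = 0.491). PPP1R15B had a log2 change of -0.02 ± 0.06. The ratio of PPP1R15A to PPP1R15B counts ran from 0.918 to 1.09 at 37C and from 1.00 to 1.11 at 41C, which overlap.

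TRIB3, a pseudokinase that feeds back on ATF4, was at 91.5 ± 9.03 and 90.1 ± 4.62 CPM, a log2 change of -0.02 ± 0.07. CHAC1 gave only 73 to 106 counts per library and a log2 change of 0.06 ± 0.17, so its interval reached from 0.807 to 1.34 times the 37C level. SESN2, the leucine sensor that inhibits mTORC1, had a log2 change of 0.04 ± 0.08. The translation inhibitor gene EIF4EBP1 had one of -0.05 ± 0.06 and the secreted glycoprotein gene STC2 one of 0.06 ± 0.07. The lipoprotein receptor gene VLDLR, with 37 to 55 counts per library, had a log2 change of -0.16 ± 0.22. None of these 6 had separate groups.

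Among the 9 enzymes of amino acid synthesis, 8 were tested, with 3 positive and 5 negative changes and a median of -0.01. The split was 1 and 7 with upper-quartile scaling and on the FPKM scale, and 5 and 3 with the length correction. Serine is made from a glycolytic intermediate by PHGDH, PSAT1 and PSPH in turn. PHGDH, the first enzyme, was at 309.1 ± 17.5 CPM at 37C and 286.0 ± 8.97 at 41C, with a log2 change of -0.11 ± 0.05 (edgeR adjusted p = 0.310), and 41C replicate 3 exceeded 37C replicate 1. PSAT1, the second, was at 389.8, 348.6 and 385.1 CPM at 37C and at 369.1, 371.5 and 369.1 CPM at 41C. The warmed libraries of PSAT1 lay inside the range of those at 37C, and the change was -0.02 ± 0.05.

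PSPH, the phosphatase that completes serine synthesis, was at 55.4, 52.4 and 56.1 CPM at 37C and at 61.0, 58.5 and 64.2 CPM at 41C. All warmed libraries lay above all those at 37C, with a log2 change of 0.16 ± 0.06 (edgeR adjusted p = 0.232). PHGDH and PSPH, first and last in the route, had point estimates of opposite sign. The ratio of PSPH to PHGDH counts was 0.171 to 0.189 at 37C and 0.203 to 0.221 at 41C, a difference of 0.27 on the log2 scale with no overlap. With 3 libraries against 3 the exact two-sided permutation p was 0.1, the smallest possible, and 0.3 adjusted over the 6 ratios examined, which were chosen after the counts had been seen.

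CTH, which splits cystathionine to yield cysteine, was at 63.2, 63.7 and 66.4 CPM at 37C and at 54.7, 59.2 and 58.9 CPM at 41C. The groups of CTH were separate, and its log2 change was -0.16 ± 0.06 (edgeR adjusted p = 0.218). ASNS, asparagine synthetase, was at 37.3, 36.6 and 35.4 CPM at 37C and at 34.0, 32.2 and 34.5 CPM at 41C. Its groups were also separate, by under 1 CPM at their nearest, with a log2 change of -0.12 ± 0.07 (edgeR adjusted p = 0.457). GPT2, an alanine aminotransferase gene, had a log2 change of 0.01 ± 0.06, and the proline synthesis genes ALDH18A1 and PYCR1 had ones of 0.01 ± 0.06 and -0.01 ± 0.07.

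CBS, the enzyme before CTH, was counted 2, 4 and 3 times at 37C and 32, 3 and 0 times at 41C, so 1 warmed library held nearly all of its 41C counts. CBSL, a near-identical copy of CBS, was counted 31, 31 and 35 times at 37C and 45, 43 and 20 times at 41C. How reads that match both copies were assigned is unstated, so both values are uncertain. The sum of both rows gave a log2 change of 0.38 ± 0.39 in edgeR (adjusted p = 0.734), and of -0.13 without 41C replicate 1.

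**Figure D3:**
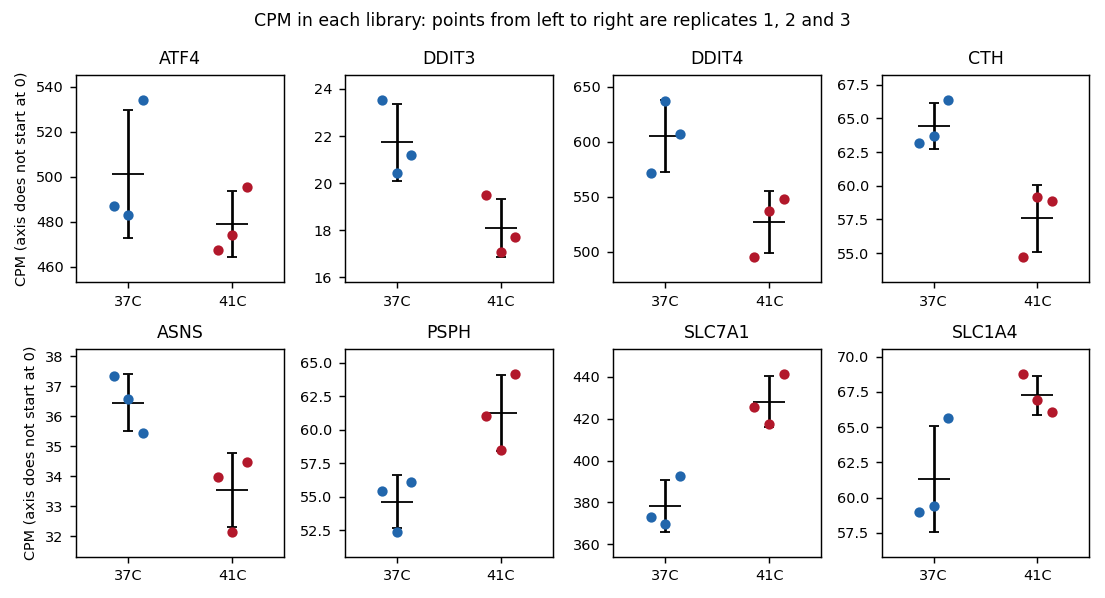
CPM (vertical axes, which do not start at 0) in each library at 37C and 41C for ATF4 and the 7 genes whose groups did not overlap, with bars for the mean and SD of 3 libraries. DDIT3, DDIT4, CTH and ASNS lie lower at 41C, PSPH, SLC7A1 and SLC1A4 lie higher, and ATF4 overlaps.

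The mitochondrial one-carbon enzymes pass carbon units from serine to formate for nucleotide synthesis. SHMT2, which takes the unit from serine, was at 249.6, 252.9 and 265.0 CPM at 37C and at 237.5, 239.5 and 251.1 CPM at 41C. The groups overlapped through 41C replicate 3, with a log2 change of -0.08 ± 0.04 (edgeR adjusted p = 0.473). MTHFD2, the next enzyme, was at 120.2, 113.0 and 122.5 CPM at 37C and at 111.4, 115.1 and 110.7 CPM at 41C, likewise a change of -0.08 ± 0.05. MTHFD1L, which releases formate, was at 58.4, 60.6 and 65.5 CPM at 37C and at 65.4, 64.1 and 63.1 CPM at 41C. Its groups overlapped through 37C replicate 3, and its change was 0.06 ± 0.06 (95% interval -0.06 to 0.19). ALDH1L2, which oxidises the unit to carbon dioxide, was counted 6 times at 37C and 10 times at 41C, all libraries pooled. Their ratio was 1.60, its interval from 0.525 to 5.34 covers counting error only, and a difference was not detectable at this depth.

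All 7 amino acid transporters had a positive log2 change, with a median of 0.06, but SLC38A2 and SLC3A2 turned negative with upper-quartile scaling and on the FPKM scale. SLC7A1 encodes CAT1, the main importer of arginine and lysine in many cells, and its gene lies at chr13:29509410-29595688. SLC7A1 was at 373.0, 369.7 and 392.4 CPM at 37C and at 425.4, 417.5 and 441.3 CPM at 41C. The groups were separate by more than the range within either, and replicate 3 was the highest library at each temperature. The log2 change of SLC7A1 was 0.18 ± 0.04, or 1.13-fold (95% interval 1.06 to 1.21; edgeR adjusted p = 0.0556). It passed the threshold in 4 of the 16 alternatives, DESeq2 among them (adjusted p = 0.0201). With the length correction its log2 change was 0.15 and did not pass (edgeR adjusted p = 0.175). In edgeR with 1 library left out, the adjusted p of SLC7A1 ran from 0.00131 without 37C replicate 3 to 0.375 without 37C replicate 2. Its log2 change stayed between 0.15 and 0.21 in all 16 alternatives.

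SLC1A4 and SLC1A5 encode the neutral amino acid exchangers ASCT1 and ASCT2. SLC1A4 was at 59.0, 59.4 and 65.6 CPM at 37C and at 68.8, 66.9 and 66.1 CPM at 41C. Its groups were separate by under 1 CPM, between 37C replicate 3 and 41C replicate 3, with a log2 change of 0.13 ± 0.06 (edgeR adjusted p = 0.336). Without 37C replicate 3, where 6.62% of all genes passed, it passed too (log2 change 0.19, edgeR adjusted p = 0.0394). SLC1A5 was at 406.6 ± 19.7 CPM at 37C and 422.4 ± 5.82 at 41C, a change of 0.06 ± 0.04 with overlapping groups. The ratio of SLC1A4 to SLC1A5 counts was 0.1495 to 0.1529 at 37C and 0.157 to 0.1616 at 41C, with separate groups and the same exact permutation p of 0.1 (0.3 adjusted).

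SLC7A5 was at 3212, 3142 and 3216 CPM at 37C and at 3218, 3130 and 3366 CPM at 41C. The warmed libraries of SLC7A5 held both the lowest and the highest value, with a log2 change of 0.02 ± 0.04 (95% interval -0.07 to 0.11). SLC3A2, its heavy chain, was at 818.0, 794.4 and 849.6 CPM at 37C and at 861.2, 817.4 and 797.8 CPM at 41C, a change of 0.01 ± 0.04 (95% interval -0.09 to 0.10). As folds, the intervals of the LAT1 chains were 0.953 to 1.08 for SLC7A5 and 0.943 to 1.07 for SLC3A2. The ratio of light to heavy chain counts was 3.79 to 3.95 at 37C and 3.74 to 4.22 at 41C.

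SLC7A11, the cystine importer xCT, which pairs with the same heavy chain, varied most between replicates among transporters. It was at 146.0, 121.5 and 103.3 CPM at 37C and at 143.8, 142.7 and 118.9 CPM at 41C, and replicate 3 was the lowest at both temperatures. The coefficient of variation was 17.3% at 37C and 10.4% at 41C, against 1.3 to 9.21% for the other transporters. Its log2 change of 0.13 ± 0.14 (edgeR adjusted p = 0.764) was close in size to that of SLC1A4 but carried an interval from -0.22 to 0.48. With a block for replicate number, a pairing that the labels do not state, it was 0.14 ± 0.05 and did not pass (edgeR adjusted p = 0.182). SLC38A2, the sodium-coupled importer SNAT2, likewise was lowest in replicate 3 of each group, at 530.6 and 524.7 CPM, and had a log2 change of 0.01 ± 0.08.

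**Figure D4:**
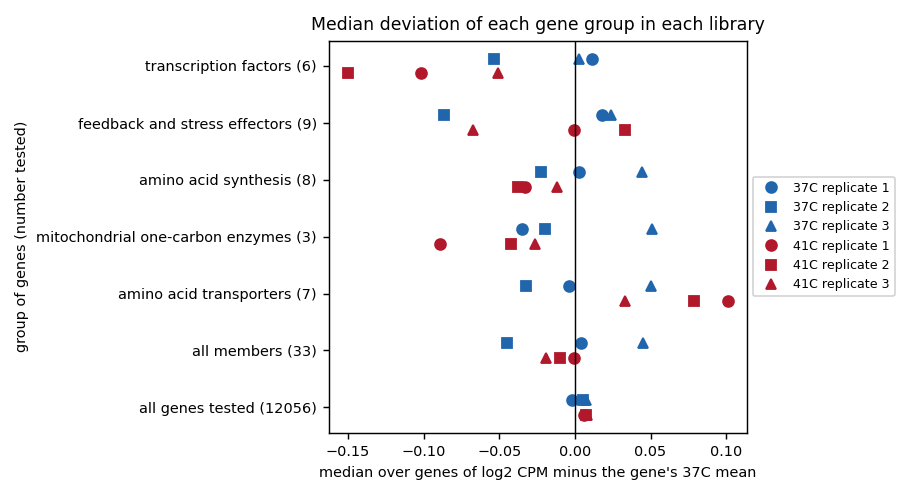
Median over the tested genes of each role of log2 CPM minus the gene's 37C mean (horizontal axis), for each of the 6 libraries. The transcription factors lie at -0.15 to -0.05 in the 41C libraries and the transporters at 0.03 to 0.10, but 37C libraries reach -0.05 and 0.05 in these same roles.

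Summarised by library, neither the transporters nor the transcription factors separated the temperatures. The median deviation of the transporters from their 37C means was 0.10, 0.08 and 0.03 in 41C replicates 1, 2 and 3, and 0.05 in 37C replicate 3, so the groups overlapped. That of the transcription factors was -0.10, -0.15 and -0.05 at 41C, against -0.05 in 37C replicate 2. Over all 33 transcripts the 41C libraries lay at -0.02 to 0.00 and the 37C libraries at -0.04 to 0.05.

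The wider pathway was read from 6 further lists with 83 tested genes, of which edgeR called none, against 1.09% of all genes. At an unadjusted p under 0.05, 7 of them were higher and 1 lower, against 7.58% and 6.12% of all genes. DESeq2 and limma-voom also called none of the 83, but DESeq2 gives some genes no adjusted p. It gave none to 14 of the 33 transcripts above, and the number without one among the 83 was not recorded. Among 12 genes for eIF2, its kinases and its exchange factor eIF2B, the median log2 change was 0.01. EIF2AK4, the GCN2 kinase that senses uncharged tRNA, was at 117.2, 116.9 and 106.4 CPM at 37C and at 125.5, 119.6 and 122.9 CPM at 41C. Its groups were separate, with a log2 change of 0.11 ± 0.05 (edgeR adjusted p = 0.366). EIF2AK3, the PERK kinase of the endoplasmic reticulum, had a log2 change of -0.09 ± 0.08.

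The 20 cytosolic tRNA synthetases, many of them ATF4 targets, had a median of -0.02, with 8 positive and 12 negative. The valine enzyme VARS1 had the smallest p of this list, with 95.8 ± 1.53 CPM in the 37C libraries and 107.4 ± 5.47 CPM in the 41C libraries, a log2 change of 0.16 ± 0.05 (edgeR adjusted p = 0.164). Of 12 other amino acid transporters tested, 9 had a positive change, with a median of 0.04. SLC38A5, which carries glutamine and serine, averaged 67.4 ± 3.54 CPM in the 37C libraries and 76.1 ± 1.31 CPM in the 41C libraries, a log2 change of 0.18 ± 0.06 (edgeR adjusted p = 0.163). Among 11 other folate and glycine genes, MTHFD2L had the smallest p (-0.29 ± 0.16, edgeR adjusted p = 0.455). Among 10 other genes of glutamine, aspartate and proline metabolism it was PRODH, the proline oxidase, which lay under 1 CPM in all libraries (-0.85 ± 0.39, edgeR adjusted p = 0.353).

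Of 18 tested genes that sense amino acids for mTORC1, 12 had a positive change. MTOR, the kinase itself, was at 104.8, 103.9 and 104.9 CPM at 37C and at 124.6, 118.1 and 113.1 CPM at 41C, with separate groups and a log2 change of 0.18 ± 0.05 (edgeR adjusted p = 0.102). MTOR, SLC38A5 and VARS1 passed without 37C replicate 3, an omission with which 6.62% of all genes passed. For comparison, 17 of 20 tested genes of the endoplasmic reticulum's unfolded protein response had a negative change, with a median of -0.06 and none called. Its chaperone HSPA5 was at 1100, 1133 and 1118 CPM at 37C and at 982.8, 1010 and 1028 CPM at 41C (-0.15 ± 0.04, edgeR adjusted p = 0.0912). The difference between that list and the 33 transcripts was not tested.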

How the data were processed

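For 6 HaCaT libraries the authors deposited raw counts by gene symbol together with FPKM. The labels' protocols name the mirVana kit for RNA and a stranded TruSeq kit for mRNA libraries. The submitters' processing notes name Trimmomatic 0.36, HISAT2 and the build GRCh38.p13. The counter, its annotation and its strand option were not given in the sources used here. Each deposited FPKM equalled the count over 1 fixed length and the library total, within 0.01% for 100% of nonzero values, so it is no independent measurement.

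The count test was edgeR 4.0.16 under R 4.3.3 (filterByExpr, TMM scaling, robust quasi-likelihood fit, two-sided, Benjamini-Hochberg over 12056 genes, threshold 0.05). CPM are TMM-scaled and log2 changes carry SE. Intervals are 95% from the same fit. Values were given for every library for genes with separate groups and an unadjusted p under 0.05, and for the most abundant, highest and lowest gene of each role, and the smallest p of each further list was named. ASNS, SLC7A11 and others were added after their values were seen. The genes, roles and lists were chosen with earlier results of these data known. Alternatives were DESeq2 1.42.0, limma 3.58.1 (voom, and log2(FPKM + 1) or log2(FPKM + 0.1)), other scalings and filters, a replicate block, a correction for gene length, and each library left out. The sum of CBS and CBSL and levels per GENCODE exon length were added after the data had been seen. The procedure was tested on simulated data, with 50 changed genes per fold drawn from those with higher counts. It recovered 10% of 1.1-fold, 60% of 1.2-fold and 100% of 1.5-fold and 2-fold changes. Smaller changes were therefore often missed. With no change simulated it made 0 calls.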

Additional observations from a re-analysis of the deposited data

How the results depend on the processing

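Of the 33 transcripts, 20 kept the sign of their change in all 16 alternatives, and 3 passed the threshold in at least 1 (DDIT4, SLC7A1 and SLC1A4). The count of 0 past the threshold became 2 with DESeq2, with no filter and with a replicate block, and 1 with upper-quartile scaling. It stayed 0 in 10 of the 16 and ran from 0 to 3 with 1 library left out, 1 without 37C replicate 1 and 3 without 37C replicate 3. DESeq2 gave no adjusted p for 14 of the 33. Of the further pathway genes, 1 passed with the replicate block and 0 to 3 with 1 library left out. The labels do not tie same-numbered replicates together. Their deviations correlated at 0.082, -0.0194 and 0.0774, all under 0.1, and the numbers were not treated as pairs. Replicates 1 and 3 each correlated best with their own number and replicate 2 did not, which is a hint from the data and not from the design. With the block the adjusted p was 0.00162 for DDIT4 and 0.00404 for SLC7A1, and 438 of all genes passed where 131 did without it. Over all genes 217 passed with DESeq2, 284 with no filter, 11 with log2(FPKM + 1), 40 with log2(FPKM + 0.1) and from 5 (without 41C replicate 2) to 805 (without 37C replicate 3) with 1 library left out.

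With the length correction the median of the feedback genes and effectors was 0.0517. With 1 library left out, the medians ran from -0.0436 to -0.0002 for all 33 transcripts, -0.1703 to -0.0907 for the transcription factors, -0.0429 to 0.025 for the feedback genes, -0.0782 to 0.0194 for amino acid synthesis, -0.0875 to -0.049 for one-carbon enzymes and 0.0354 to 0.0857 for transporters.

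Genes near 0 changed sign. With upper-quartile scaling the log2 changes were -0.0078 for ALDH18A1, -0.0104 for CEBPG, -0.0096 for GPT2, -0.0065 for SLC38A2 and -0.0118 for SLC3A2. With log2(FPKM + 1) they were -0.0032, -0.0075, -0.0080, -0.0063 and -0.0103, and with log2(FPKM + 0.1) -0.0033, -0.0081, -0.0085, -0.0063 and -0.0103. With the length correction they were 0.0555 for EIF4EBP1, 0.0161 for PSAT1 and 0.0298 for PYCR1. With 1 library left out the ranges were -0.0468 to 0.0633 for ALDH18A1, -0.0582 to 0.0902 for CEBPG, -0.1124 to 0.145 for CHAC1, -0.0284 to 0.0478 for GPT2, -0.0429 to 0.025 for PPP1R15B, -0.0698 to 0.0054 for PSAT1, -0.0865 to 0.0477 for PYCR1, -0.0129 to 0.0708 for SESN2, -0.0474 to 0.0857 for SLC38A2, -0.023 to 0.0354 for SLC3A2, -0.0075 to 0.0453 for SLC7A5, -0.0898 to 0.0565 for TRIB3 and -0.1325 to 0.7315 for CBS and CBSL summed. The cause of these shifts was not tested. Depth limits CBS, ALDH1L2, NUPR1, VLDLR and CHAC1 most.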
